A study of Homo sapiens with 6 samples.

Results

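Cells that carried transcripts of GADD45B and HEXIM1 were a small fraction of dissociated human retinal organoid fragments, 751 of 43757 kept cells. A cell was kept with at least 1000 UMIs (unique molecular identifiers, each counting 1 captured RNA molecule), at least 500 detected genes and at most 20% of its UMIs from mitochondrially encoded genes. It was a member with at least 2 UMIs of GADD45B, at least 1 of HEXIM1, and at most 2 summed over HRK, TRIB3, BBC3 and PPP1R27, so the members were chosen by the counts of these 6 genes, whose levels are no finding. The transplanted samples were organoid fragments collected 3 days after injection under the retina of normal dogs, and the cultured samples came from the same organoid batches and stayed in the dish over the same time. Both groups derived from the established human embryonic stem cell line WA09 carrying a CRX-tdTomato reporter, and from organoids grown for 113 to 126 days and broken up mechanically. Both were dissociated with a neural tissue kit and run on the 10x Genomics 3′ platform. The experiment was done in 3 independent Sets, each with 1 transplanted and 1 cultured sample of the same batch, so there were 3 libraries per group.

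GADD45B encodes a small stress-inducible protein that binds kinases of the p38 and JNK pathways and takes part in DNA repair and demethylation, and it is an early-induced gene in neurons. HEXIM1 holds the transcription elongation kinase P-TEFb (CDK9 with a cyclin T) inactive in a complex with 7SK RNA, and it was first known as a gene induced by hexamethylene bisacetamide. The other markers proposed for these cells were NEFM, a neurofilament subunit, ID2, an inhibitor of basic helix-loop-helix transcription factors and a target of BMP signalling, and SNHG12, a host gene of small nucleolar RNAs.

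The sequences just upstream of GADD45B and HEXIM1 are shown because they define these cells and because both hold the letters TATAAA shortly before the start. Each is the 250 bases before the annotated transcription start on the gene's own strand, from RefSeq on GRCh38.p14, with the motifs TATAAA and, in GADD45B, CACGTG in capitals. The GADD45B window is chr19:2475877-2476126 on the plus strand, and the HEXIM1 window is chr17:45148225-45148474 on the plus strand.
GADD45B: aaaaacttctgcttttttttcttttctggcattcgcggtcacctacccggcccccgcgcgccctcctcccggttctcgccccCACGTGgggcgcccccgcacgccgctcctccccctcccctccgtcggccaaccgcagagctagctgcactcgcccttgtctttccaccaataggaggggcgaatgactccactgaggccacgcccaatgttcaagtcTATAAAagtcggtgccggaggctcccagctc
HEXIM1: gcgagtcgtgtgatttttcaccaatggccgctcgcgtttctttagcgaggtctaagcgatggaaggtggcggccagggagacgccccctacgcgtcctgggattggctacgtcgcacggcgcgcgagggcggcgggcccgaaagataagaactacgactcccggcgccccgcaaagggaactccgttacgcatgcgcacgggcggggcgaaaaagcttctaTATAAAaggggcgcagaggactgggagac
The first T of TATAAA lay 31 bases before the start of GADD45B and 29 bases before that of HEXIM1. Of 17 genes looked for, these 2 and the 15 most increased genes described below, 12 had promoter entries, and TATAAA on the gene strand was in 4 of them (GADD45B, HEXIM1, KLF5 and SGK1). In KLF5 and SGK1 it lay 194 and 15 bases before an annotated start. The same letters were in 6.80% of all 35116 promoter windows and in at least one window of 8.38% of the 27305 genes. The cyclic AMP response element TGACGTCA and the AP-1 motif TGANTCA, searched on both strands, were in none of the 12, against 2.03% and 8.06% of all genes. The shorter core TGACG of the cyclic AMP element, on either strand, was in 6 of the 12 (CHST8, NPAS4, PLK2, ZNF503, TSPYL2 and KLF5), against 24.9% of all genes. The E-box CACGTG, which reads the same on both strands, was in GADD45B alone, against 7.73% of genes. A match here is a match of letters, not a test of binding.

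The deposited matrices held 45281930, 6850189 and 43989876 UMIs in transplanted libraries 1, 2 and 3 and 74298633, 108222149 and 8000032 UMIs in cultured libraries 1, 2 and 3. Transplanted 2, with 694 kept cells, was far smaller than the other transplanted libraries. Its 11 members entered none of the main fits, only the alternative fits said to include transplanted 2. Pairs of libraries shared at most 54 cell barcodes. Some dog reads may align to human genes. Genes that carry only a clone name, and are poorly conserved as a rule, took 1.77% ± 1.16 of UMIs in members and 1.92% ± 1.18 in depth-matched cells of the same libraries (SD, n = 6), lower in 6 of 6 libraries (exact two-sided paired permutation p = 0.031, 0.0521 adjusted over 5 readouts). That test pools the transplanted libraries with the cultured ones, which stayed in the dish, so it cannot decide on dog reads.

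Members were most frequent in transplanted Set 3. They were 125 of 7809, 11 of 694 and 259 of 4818 kept cells in transplanted libraries 1, 2 and 3, and 123 of 17899, 199 of 10652 and 34 of 1885 in cultured libraries 1, 2 and 3. These counts gave 1.60% (95% exact Clopper-Pearson interval 1.33 to 1.90%), 1.585% (0.794 to 2.82%) and 5.38% (4.76 to 6.05%) of transplanted cells. In cultured cells they gave 0.687% (0.571 to 0.819%), 1.87% (1.62 to 2.14%) and 1.80% (1.25 to 2.51%). The interval of transplanted 3 lay above those of all 5 other libraries, and the transplanted library was above the cultured one in Sets 1 and 3 but not in Set 2. The intervals cover counting error only.

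The mean share was 2.85% ± 2.18 in transplanted and 1.45% ± 0.664 in cultured libraries (SD, n = 3 each), a difference of 1.40 percentage points with an exact two-sided permutation p of 0.60, where 3 against 3 libraries cannot go below 0.10. Without transplanted 3 the difference was 0.140 points. Because a gate on raw counts is easier to pass in a deep cell, each cell was also thinned to 2000 UMIs before the gate was applied, which left out 2250, 252 and 1619 transplanted and 5030, 1375 and 870 cultured cells that were shallower. The thinned shares were 0.396%, 0.905% and 3.97% in transplanted and 0.124%, 0.334% and 0.887% in cultured libraries 1, 2 and 3. After thinning the transplanted library was higher in 3 of 3 Sets, with means of 1.76% ± 1.93 and 0.448% ± 0.394, a difference of 1.31 points (exact two-sided permutation p = 0.20).

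**Figure D1:**
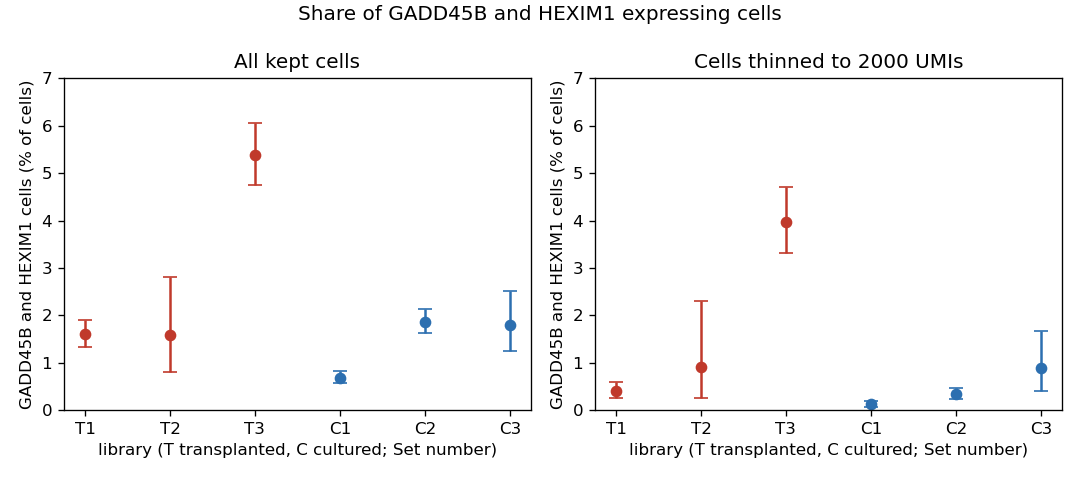
Share of kept cells that passed the GADD45B and HEXIM1 gate, in percent, for transplanted (T) and cultured (C) libraries of Sets 1 to 3, with 95% exact Clopper-Pearson bars. Transplanted 3, at 5.38% unthinned and 3.97% after thinning every cell to 2000 UMIs, stood above the other 5 libraries in both panels.

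The gate took in cells of very different depth. Median depth of members was 9116, 6606 and 3440 UMIs in transplanted libraries 1, 2 and 3, against library medians of 3441, 3367.5 and 3439.5. In cultured libraries 1, 2 and 3 members had medians of 8483, 4841 and 2640 UMIs, against library medians of 3108, 4415 and 2140. Members were therefore far deeper than the typical cell in both libraries of Set 1, and as deep as the typical cell in transplanted 3. Unless another set of cells is named, comparisons with other cells below use 5 cells per member of the same library, matched on UMIs (depth-matched cells), whose medians were within 6 UMIs of those of the members. They were drawn from all non-members, so the pool included cells with a sum of at least 3 over HRK, TRIB3, BBC3 and PPP1R27. A difference from them can thus also reflect the gate's limit on these 4 genes, and that part was not tested.

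Dividing the GADD45B count by depth separated the members further. Those with at least 5 GADD45B UMIs per 10000, called dense members here, were 48, 9 and 220 cells in transplanted and 42, 111 and 24 cells in cultured libraries 1, 2 and 3. That was 38.4%, 81.8% and 84.9% of the transplanted and 34.1%, 55.8% and 70.6% of the cultured members. Dense members were shallower than the others, with median depths of 2820, 5954 and 2884.5 UMIs in transplanted and 3473.5, 1891 and 1845.5 UMIs in cultured libraries. The other members had medians of 15537, 34453.5 and 16734 UMIs in transplanted and 11491, 24050 and 17078 UMIs in cultured libraries. The threshold of 5 per 10000 was chosen after the values were seen, so levels in dense members are described without a test. Fits on dense members appear only as an alternative choice of cells, where the dependence on the processing is given.

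**Figure D2:**
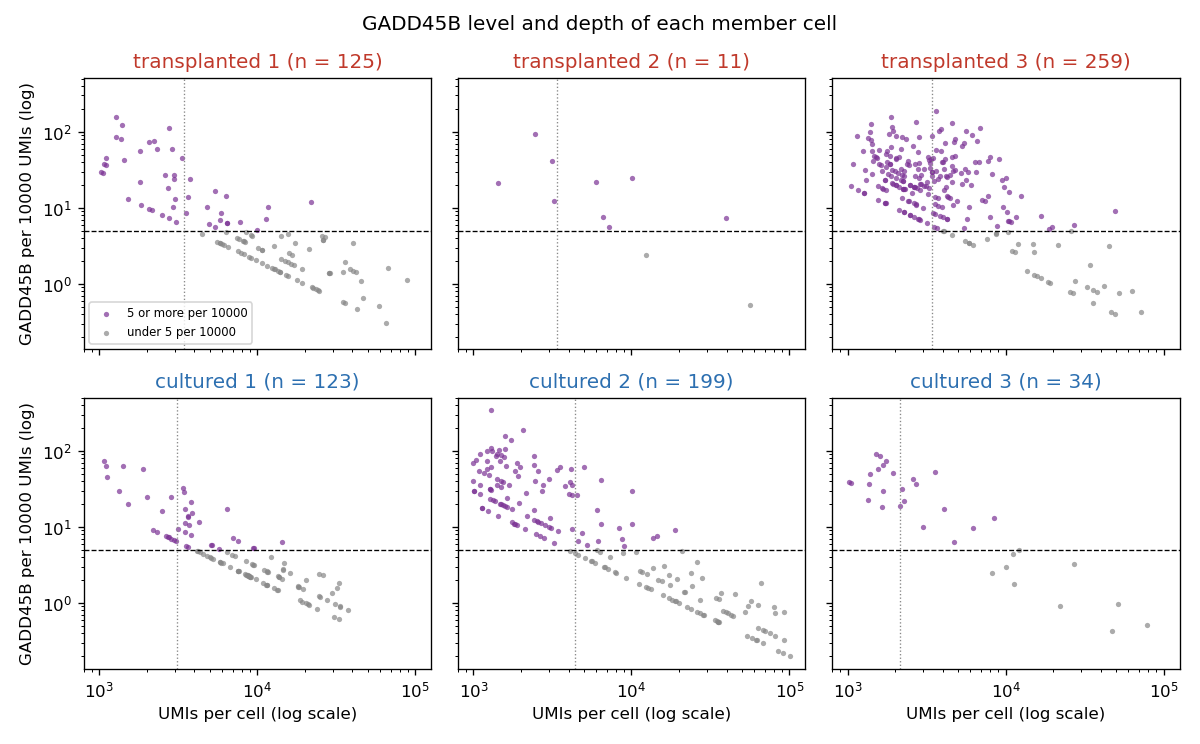
GADD45B UMIs per 10000 against total UMIs of each member cell (both axes logarithmic), with a dashed line at 5 per 10000 and a dotted line at the library's median depth. Purple points, the dense members, make up 84.9% of the members of transplanted 3 and 34.1% of those of cultured 1.

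The proposed markers outside the gate, NEFM, ID2 and SNHG12, were high in the dense members. All levels below are counts-per-million (CPM), the UMIs of a gene summed over a set of cells and scaled to the same total for every set. GADD45B reached 372, 842 and 1496 CPM in members of transplanted libraries 1, 2 and 3 and 321, 393 and 669 CPM in members of cultured libraries 1, 2 and 3. Its level in depth-matched cells was 71.7, 51.2 and 79.7 CPM in transplanted and 63.5, 30.01 and 20.5 CPM in cultured libraries. In dense members it was 1976, 1496 and 2843 CPM in transplanted and 1258, 2966 and 3057 CPM in cultured libraries, while the other members held 87.1 to 189 CPM. Single dense cells had up to 77 GADD45B UMIs, in transplanted 3, where the median dense cell had 7.

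HEXIM1 was at 592, 453 and 882 CPM in dense members of transplanted and 344, 873 and 634 CPM in those of cultured libraries 1, 2 and 3, against 13.1 to 34.4 CPM in depth-matched cells. NEFM was at 143, 277 and 255 CPM in dense members of transplanted and 49.1, 352 and 293 CPM in those of cultured libraries, against 1.24 to 10.04 CPM in depth-matched cells. ID2 was at 793, 603 and 1085 CPM in transplanted and 337, 1544 and 699 CPM in cultured dense members, against 34.6 to 55.3 CPM in depth-matched cells. SNHG12 was at 333, 402 and 604 CPM in transplanted and 196, 555 and 439 CPM in cultured dense members, against 25.5 to 87.01 CPM in depth-matched cells. HEXIM1 is a gate gene, so its level was set by the rule. For NEFM, ID2 and SNHG12 the dense members of all 6 libraries lay above the depth-matched cells of all 6. Each was lower than that in the other members of Sets 1 and 2. There NEFM was at 4.99 and 0 CPM in transplanted and 11.2 and 28.7 CPM in cultured libraries 1 and 2. ID2 was at 44.3 and 14.5 CPM in transplanted and 48.3 and 72.0 CPM in cultured libraries. SNHG12 was at 35.6 and 87.1 CPM in transplanted and 42.3 and 24.9 CPM in cultured libraries. SNHG12 in transplanted 1 and cultured 2, and NEFM and ID2 in transplanted 2, were below the depth-matched cells, and the rest were above. The depth-matched cells were matched to all members, also where they are set beside dense members. Their median depth was therefore above that of the dense members of the same library, at 9122 against 2820 UMIs in transplanted 1. The gene bodies of HEXIM1, NEFM, ID2 and SNHG12 overlap other annotated genes on the opposite strand, so reads of a neighbour may be counted in them.

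The edges of the gate were graded, not sharp. In transplanted 3 the 38 members with exactly 2 GADD45B UMIs had 8.23 CPM of SNAI1, the gene that differed most below, and the 91 members with 10 or more had 169 CPM. Just outside, the 72 cells with 1 GADD45B UMI and HEXIM1 had 7.18 CPM of SNAI1, and the 131 cells with GADD45B but no HEXIM1 had 25.6 CPM. The 22 cells excluded by a sum of exactly 3 over HRK, TRIB3, BBC3 and PPP1R27 had 973 CPM of GADD45B and 48.96 CPM of SNAI1, so cells like the members were also left out by the gate in that library. In transplanted 1, cultured 1 and cultured 2 the 15, 7 and 24 cells so excluded had 166, 228 and 71.7 CPM of GADD45B. Their SNAI1 was at 9.75, 0 and 0 CPM. These values describe the thresholds and were not tested.

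Against depth-matched cells, members carried more RNA of SNAI1, NEFH, NPAS4, CHST8, CRISPLD2 and EYA4, each by over 3 on the log2 scale. In edgeR's quasi-likelihood test over the 5 libraries with at least 20 members, 448 genes were higher (2.79% of 16047 tested) and 506 lower (3.15%), together 5.95%, at a Benjamini-Hochberg adjusted p under 0.05, with 3665 genes at an unadjusted p under 0.05 and a median log2 change of -0.02. Without cultured 2, which has the most members of the cultured libraries, 113 genes were higher and 122 lower. The 6 gate genes and the proposed markers are left out of what follows. The error of a log2 change is its SE, and that of a mean level is the SD over libraries.

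SNAI1, a zinc finger repressor that drives epithelial to mesenchymal transition, had the largest change. Members held 18.4, 53.9 and 78.7 CPM in transplanted libraries 1, 2 and 3 and 8.33, 21.1 and 29.3 CPM in cultured libraries 1, 2 and 3. Depth-matched cells held 1.13, 4.15 and 3.74 CPM in transplanted and 0.761, 0.559 and 0.621 CPM in cultured libraries. Members and matched cells did not overlap, and the log2 change was 4.46 ± 0.28 (SE; adjusted p = 1.16e-06). Although members were 0.687 to 5.38% of cells, they carried 37.5%, 50% and 50% of all SNAI1 UMIs of kept cells in transplanted and 16.9%, 49.3% and 66.7% in cultured libraries. In transplanted 3, 35.1% of members had a SNAI1 UMI, against 2.08% of depth-matched cells and 0.935% of other cells with RPE, mural or Müller markers (median depths 3440, 3445 and 3766 UMIs). SNAI1 (ENSG00000124216) lies on chromosome 20 of GRCh38 from 49982999 to 49988886 in GENCODE v29, with no overlapping gene.

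NPAS4, a transcription factor induced by calcium entry in active neurons, was at 5.58, 13.5 and 117 CPM in members of transplanted and 1.51, 10.6 and 76.3 CPM in members of cultured libraries 1, 2 and 3. Depth-matched cells had 1.02, 2.77 and 11.01 CPM in transplanted and 1.07, 0.870 and 2.48 CPM in cultured libraries, a log2 change of 3.34 ± 0.35 (adjusted p = 0.000827). Both libraries of Set 3 were far above the rest, and the members of Set 1 lay below the matched cells of transplanted 3. NEFH, the heavy neurofilament subunit, was at 11.2, 40.4 and 111 CPM in members of transplanted and 8.33, 14.9 and 38.1 CPM in members of cultured libraries. Its depth-matched cells had 0.790, 2.77 and 8.15 CPM in transplanted and 1.83, 1.99 and 1.86 CPM in cultured libraries (3.38 ± 0.27, adjusted p = 1.34e-05), so every member set was above every matched set. An antisense RNA, AC000035.1, overlaps NEFH.

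CRISPLD2, a secreted protein, averaged 34.3 ± 36.9 CPM in members and 2.83 ± 2.96 in depth-matched cells (SD, n = 5 libraries; 3.49 ± 0.29, adjusted p = 2.28e-05), though in Set 1 the members had only 2.79 CPM in transplanted and 0.757 CPM in cultured cells. CHST8, a sulfotransferase of the Golgi, averaged 33.0 ± 31.4 CPM in members and 3.17 ± 2.87 in matched cells (3.37 ± 0.29, adjusted p = 2.73e-05). TRPV4, a cation channel that opens on swelling and warmth, was at 0.558, 40.4 and 85.9 CPM in members of transplanted and 0.757, 7.77 and 61.6 CPM in members of cultured libraries 1, 2 and 3, against 0.113 to 11.8 CPM in matched cells (2.62 ± 0.31, adjusted p = 0.000667). Set 1 thus held almost no CRISPLD2 or TRPV4 RNA in either set of cells, and the differences rest on Sets 2 and 3.

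PLK2, a kinase induced by activity and stress, averaged 80.7 ± 31.3 CPM in members and 19.4 ± 11.3 in matched cells (2.13 ± 0.26, adjusted p = 0.00538), and members were higher in 6 of 6 libraries. IER3, an early response gene linked to survival, averaged 105 ± 36.7 CPM in members and 30.8 ± 23.9 in matched cells (1.94 ± 0.30, adjusted p = 0.0211). SGK1, a kinase induced by glucocorticoids and osmotic stress, averaged 74.2 ± 50.7 and 20.9 ± 7.98 CPM (1.67 ± 0.32, adjusted p = 0.0369). DLL1, a Notch ligand, had 2.12 ± 0.37 (adjusted p = 0.0289), and ZNF503, a transcriptional repressor, 2.02 ± 0.37 (adjusted p = 0.0355). KLF5 (1.77), TSPYL2 (1.89) and TMPRSS9 (1.95) complete the 15 largest called rises together with EYA4. Leaving out 1 library ended the calls of DLL1 (transplanted 1 or cultured 3), ZNF503 and SGK1 (transplanted 1, cultured 2 or cultured 3) and IER3 (transplanted 3 or cultured 2), with log2 changes from 1.56 to 2.15. DLL1, ZNF503, TMPRSS9, IER3, EYA4 and CRISPLD2 overlap other annotated genes, which makes their counts less certain.

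EYA4, a transcriptional coactivator with phosphatase activity, had another pattern. It was at 0.558, 20.2 and 20.9 CPM in members of transplanted and 3.03, 25.5 and 123.2 CPM in members of cultured libraries 1, 2 and 3, against 0.451 to 3.23 CPM in matched cells (3.22 ± 0.47, adjusted p = 0.00538). In cultured 3 the dense members had 48.8 CPM of EYA4 and the 10 other members 139.6 CPM. The 4 members of cultured 3 with exactly 2 GADD45B UMIs had 372 CPM, so a few deep cells at the edge of the gate carried much of the EYA4 RNA there. For SNAI1 in the same library the order was the other way, with 146 CPM in dense and 3.58 CPM in other members.

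Single members often carried several of the 15 genes, which were chosen for being high in members, so these shares are a description. Of dense members, 37.5%, 66.7% and 76.4% in transplanted and 11.9%, 62.2% and 75% in cultured libraries 1, 2 and 3 carried at least 4 of these 15 genes. Of the other, deeper members 22.1%, 50% and 61.5% did so in transplanted and 13.6%, 53.4% and 90% in cultured libraries, more than of the dense members in cultured 1 and 3. Of depth-matched cells 5.12%, 12.7% and 7.72% did so in transplanted and 5.37%, 13.3% and 8.82% in cultured libraries. By median depth these cells were deeper than the dense members and shallower than the other members. Cultured 1, whose dense members had NPAS4 at 0, had the lowest share in both kinds of member.

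Genes that were lower in members changed less than those that were higher. STMN4, a microtubule regulator of the stathmin family, was at 45.2, 26.9 and 31.9 CPM in members of transplanted and 44.7, 44.7 and 26.4 CPM in members of cultured libraries 1, 2 and 3. Depth-matched cells had 73.6, 76.1 and 108 CPM in transplanted and 56.3, 78.9 and 57.7 CPM in cultured libraries, so the sets did not overlap (-0.92 ± 0.16, adjusted p = 0.00699). Cells over the gate's 4-gene limit, which the depth-matched pool included, averaged 119 ± 33.7 CPM of STMN4 (SD, n = 5 libraries). SLC35F3, a solute carrier, averaged 107 ± 97.0 CPM in members and 202 ± 189 in matched cells and was lower in 6 of 6 libraries (-0.92 ± 0.11, adjusted p = 0.000663). PTPRR, a phosphatase that acts on MAP kinases, had -1.06 ± 0.17 (adjusted p = 0.00349), and RUNX1T1, a transcriptional corepressor, had -1.05 ± 0.19 (adjusted p = 0.00655). The other 6 of the 10 largest called falls were RPS6KL1, KCTD16, RBFOX1, AF279873.4, SCN3A and MDGA2, with log2 changes from -1.03 to -0.93. Without cultured 2, RBFOX1, SCN3A and MDGA2 were no longer called, with log2 changes from -1.07 to -0.94.

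**Figure D3:**
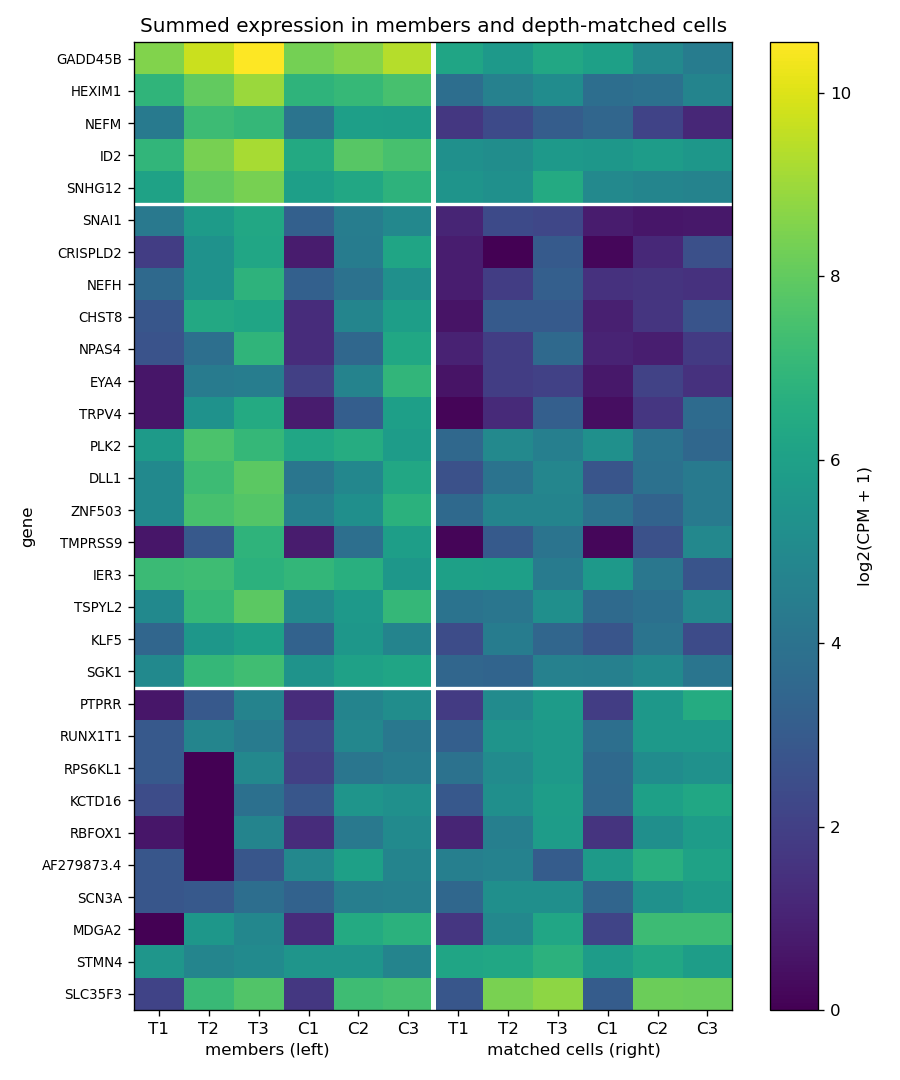
Level of the proposed markers (top block), the 15 most increased genes (middle) and the 10 most decreased genes (bottom) as log2(CPM + 1) in members (left) and depth-matched cells (right) of transplanted (T) and cultured (C) libraries 1 to 3. Members of transplanted 3 were brightest for GADD45B, and members of both Set 1 libraries were dim for CRISPLD2, TRPV4 and TMPRSS9.

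Sums of raw UMIs are dominated by the deepest cells, which in members were those with the least GADD45B per UMI. A second fit capped each cell at 2000 UMIs before summing, a choice made after the values were seen. It called 952 genes higher (9.42%) and 649 lower (6.42%) of 10106, with a median log2 change of -0.05, and all 25 genes named above kept their direction and call. The pathway and stress lists below are given under both fits, the uncapped one first. Without Set 1, whose members were mostly deep cells, 874 genes were higher (5.54%) and 319 lower (2.02%), together 7.56% of 15778.

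Immediate early genes, which are transcribed within minutes of a stimulus, were raised in part. Of 27 tested, 8 were higher and 0 lower (median 0.83, against -0.02 over all genes), and in capped cells 14 of 25 were higher and 0 lower (median 1.19, against -0.05). Without Set 1, 15 of 27 were higher and 0 lower. ATF3, a stress-induced transcription factor, was at 122, 317 and 345 CPM in members of transplanted and 154, 120 and 153 CPM in members of cultured libraries 1, 2 and 3. Depth-matched cells had 95.6, 266 and 145 CPM in transplanted and 88.3, 63.9 and 87.6 CPM in cultured libraries (0.83 ± 0.13, adjusted p = 0.00348). ARC, a synaptic gene of active neurons, had 2.36 ± 0.52 (adjusted p = 0.049), KLF4 2.04 ± 0.42 (0.025) and the nuclear receptor NR4A3 1.38. FOS and EGR1, the best known of the group, did not pass in the uncapped fit, with FOS at 0.58 ± 0.21 (adjusted p = 0.193) and EGR1 at 0.31 ± 0.14 (0.214). In capped cells FOS was called at 0.92 and EGR1 was at 0.08 ± 0.19 (adjusted p = 0.805). The list was therefore raised in NPAS4, ARC, KLF4 and ATF3 while EGR1 was not called.

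Short-lived regulators of transcription and growth had 6 of 20 higher and 0 lower (median 0.68), 11 of 18 higher and 0 lower in capped cells (median 1.43), and 10 of 19 higher and 0 lower without Set 1. SERTAD1, a cyclin-dependent kinase 4 partner, averaged more in members of 6 of 6 libraries (1.27 ± 0.18, adjusted p = 0.00285, and 2.29 in capped cells). CCNL1, a cyclin of the splicing machinery, was higher by 0.72, and SGK1 by 2.92 in capped cells. NF-kB targets had 2 of 11 higher (median 0.49), and 5 of 7 in capped cells (median 1.25), with none lower in either. NFKBIA, the inhibitor that NF-kB itself induces, had 0.72 ± 0.15 (adjusted p = 0.0166).

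Stress lists were called mainly in capped cells. Of heat shock genes 2 of 16 were higher (median 0.31), and 9 of 16 in capped cells (median 0.65), with DNAJB1, an HSP40 co-chaperone, at 0.93 ± 0.21 (adjusted p = 0.0389) and at 2.11 in capped cells. HSPA1A and HSPA1B, near-identical copies, are on this list and are uncertain. Of genes of the unfolded protein and integrated stress responses 1 of 17 was higher, PPP1R15A (0.91 ± 0.11, adjusted p = 0.000827), the phosphatase subunit that restores translation. In capped cells 8 of 15 were higher (median 0.86, against 0.24 uncapped). Of p53 targets and death genes 1 of 13 was higher, PMAIP1, which encodes the BH3-only protein NOXA (1.64 ± 0.32, adjusted p = 0.0342), and 2 of 12 in capped cells. HRK and BBC3, which encode BH3-only proteins too, were limited by the gate.

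The pathways that GADD45B and HEXIM1 belong to were mostly not called. Of 14 genes of P-TEFb and the 7SK complex 0 were called (median 0.06), and in capped cells 3 were higher, BRD2, MEPCE and SUPT5H (median 0.26). BRD2, a bromodomain protein of acetylated chromatin, was at 118, 357 and 438 CPM in members of transplanted and 81.0, 105 and 179 CPM in members of cultured libraries 1, 2 and 3. Its depth-matched cells had 83.97, 114 and 118 CPM in transplanted and 78.8, 69.0 and 88.8 CPM in cultured libraries (0.83 ± 0.31, adjusted p = 0.198, and 1.86 ± 0.23, adjusted p = 6.84e-06, in capped cells). CDK9, the kinase that HEXIM1 inhibits, had 0.39 ± 0.22 (adjusted p = 0.323, and 0.0719 in capped cells). HEXIM2, the paralog of HEXIM1, had -0.02 ± 0.19 (adjusted p = 0.973).

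Of 13 partners of GADD45 proteins and kinases of the p38 and JNK pathways 0 were called, and in capped cells 3 of 12 were higher and 1 lower. GADD45A, the paralog induced by p53, was at 179, 687 and 568 CPM in members of transplanted and 252, 193 and 170 CPM in members of cultured libraries 1, 2 and 3. Depth-matched cells had 144, 172 and 176 CPM in transplanted and 146, 136 and 94.4 CPM in cultured libraries (0.83 ± 0.22, adjusted p = 0.0843, and 1.83 ± 0.21, adjusted p = 3.61e-06, in capped cells). Members were higher in 6 of 6 libraries, most in transplanted 2 and 3. The others called in capped cells were MAP2K3, a kinase upstream of p38 (2.18), CDKN1A, a cell cycle inhibitor (1.27), and MAPK8, the kinase JNK1 (-0.65).

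Host genes of small nucleolar RNAs, the family of SNHG12, had 0 of 18 called (median 0.19), and 8 of 18 higher and 1 lower in capped cells (median 0.49). SNHG1 was at 101, 222 and 324 CPM in members of transplanted and 74.2, 81.7 and 111 CPM in members of cultured libraries 1, 2 and 3, against 30.4 to 76.1 CPM in matched cells (1.25 ± 0.31, adjusted p = 0.0824, and 2.32 ± 0.23, adjusted p = 2.75e-07, in capped cells). Intermediate filament and axon growth genes, the group of NEFM, went both ways: of 13, 1 was higher (NEFH) and 3 lower (STMN4, MAP1B and MAP2), and in capped cells 1 of 12 was higher and 4 lower. Of BMP and ID genes, the group of ID2, 3 of 16 were higher (GREM1, SMAD6 and SMAD7) and BMPR2 was lower (median 0.44). In capped cells 3 of 11 were higher, now BAMBI (0.85), ID1 and ID4 (0.73), and BMPR2 was lower again (median 0.40).

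Other lists also had more calls in capped cells, where 9.42% of all genes were called higher. Of glycolysis and hypoxia genes 2 of 13 were higher, the vasodilator peptide gene ADM (1.58 ± 0.26, adjusted p = 0.00982) and VEGFA (0.60), and in capped cells 5 of 13, with EGLN3, BNIP3 and HK2 added. Cell cycle genes had 1 of 15 higher, the cyclin gene CCND2 (0.69), and in capped cells 3 of 10, CCND2, CCNE1 and CDKN1C. STAT3 targets had 1 of 12 higher, SOCS3 (0.58), and 2 of 10 in capped cells, SERPINA3 and CEBPB. NRF2 targets had 0 of 10 called and 2 of 8 higher in capped cells, the ferritin genes FTL (0.62) and FTH1 (0.42). None of these 4 lists had a gene called lower in either fit.

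For histone and splicing genes the direction of the calls differed between the fits. Of histone genes 0 of 10 were higher and 1 lower, HIST1H1C (-0.31), but in capped cells 4 of 9 were higher and 0 lower (HIST1H2BJ, HIST1H2BD, HIST2H2BE and H3F3B, median 0.58). Of splicing genes 0 of 17 were higher and 1 lower, the nuclear RNA MALAT1 (-0.21 ± 0.06, adjusted p = 0.0473). In capped cells MALAT1 was lower too (-0.53) while 6 of 17 were higher, among them the splicing factor genes SRSF2 (1.99) and SRSF7 (1.76). Of mitochondrially encoded genes 0 of 13 were called, and in capped cells MT-ND3 was lower (-0.47). The median mitochondrial share of a cell's UMIs was 1.77% ± 1.10 in members and 2.35% ± 1.07 in matched cells (SD, n = 6), lower in 6 of 6 libraries (exact two-sided paired permutation p = 0.031, 0.0521 adjusted over 5 readouts).

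**Figure D4:**
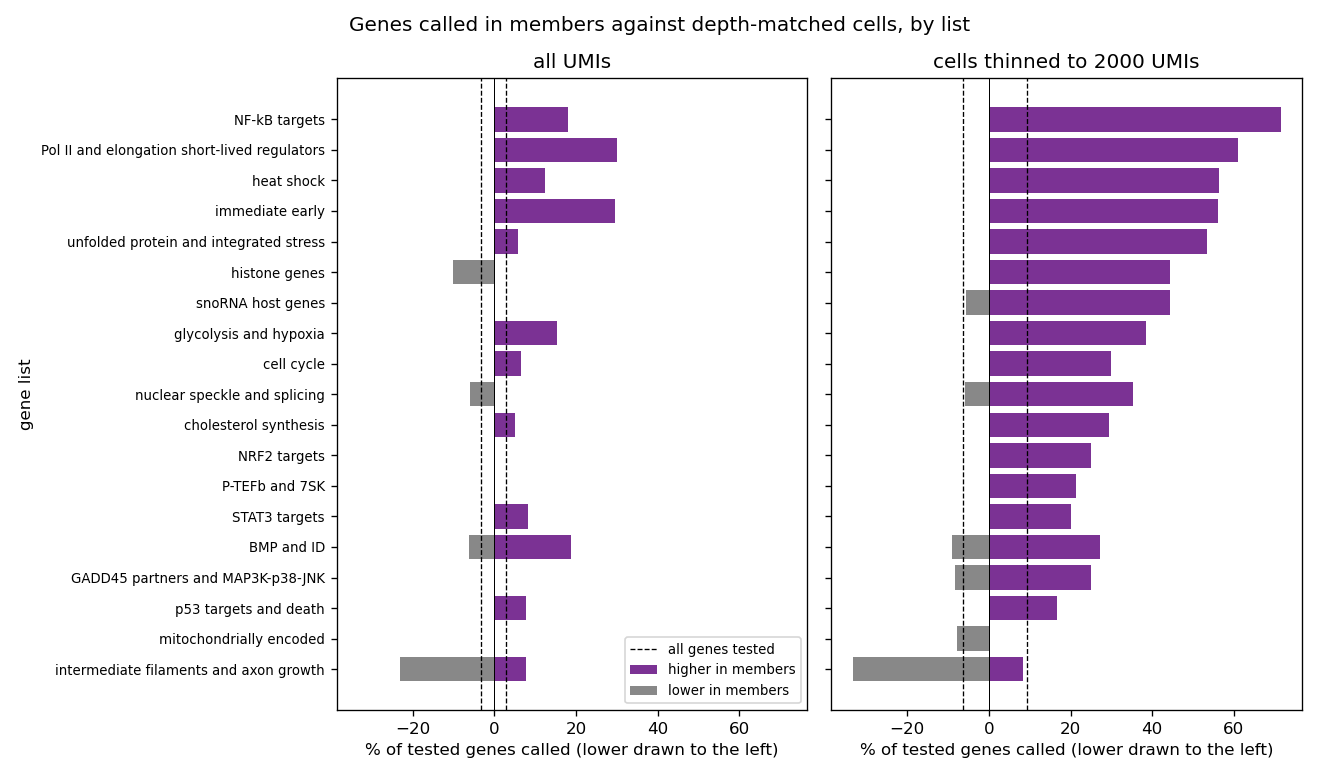
Percent of the tested genes of each list that were called higher (purple, to the right) or lower (grey, drawn to the left) in members against depth-matched cells, with all UMIs (left) and with each cell capped at 2000 UMIs (right). Dashed lines mark all genes tested, 2.79% higher and 3.15% lower on the left and 9.42% and 6.42% on the right.

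Photoreceptor RNA was lower in members than in depth-matched cells, whose pool included cells over the gate's 4-gene limit. All 6 genes shared by rods and cones were called lower (percent of all genes called lower, 3.15%), and all 6 again in capped cells. RCVRN, the calcium sensor recoverin, was at 515, 478 and 1141 CPM in members of transplanted and 633, 790 and 760 CPM in members of cultured libraries 1, 2 and 3. Depth-matched cells had 829, 1418 and 1892 CPM in transplanted and 847, 1292 and 1077 CPM in cultured libraries (-0.62 ± 0.06, adjusted p = 0.000224). CRX, the photoreceptor transcription factor that drives the reporter of this line, had -0.54 ± 0.09 (adjusted p = 0.00381). AIPL1, a chaperone of phosphodiesterase, had -0.68, PRDM1 -0.68, OTX2 -0.57 and TULP1 -0.46. When the matched cells were also matched on the leading class of markers (up to 5 per member), 5 of the 6 were called lower, and likewise 5 of 6 without Set 1. The class-matched fit called 1.79% of all genes higher and 1.11% lower, together 2.9%. TULP1 was the gene whose call ended there (-0.33 ± 0.09, adjusted p = 0.0614). Photoreceptor UMIs also occurred in cells led by markers of other types, and whether free RNA put them there was not tested. In transplanted 3 a CRX UMI was in 39.8% of members, 53.9% of depth-matched cells and 40.2% of the other cells led by RPE, mural or Müller markers, at the median depths given for SNAI1. The members' share there was at the level of cells that should lack CRX, and no expression is read from it. In the other 5 libraries it was above that level, at 24% and 36.4% of members against 12.7% and 28.6% of such cells in transplanted 1 and 2, and 26.0%, 43.7% and 52.9% against 10.2%, 23.4% and 34.6% in cultured 1, 2 and 3. Members were deeper than those cells in transplanted 1 and 2 and cultured 1 and 3. After thinning to 2000 UMIs the CRX share of members was 7.21%, 10% and 24.2% in transplanted and 5.17%, 21.6% and 61.9% in cultured libraries, and that of such cells 5.27%, 18.4% and 18.8% in transplanted and 5.02%, 7.38% and 25.5% in cultured libraries.

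Of rod genes, NRL, the factor that commits a precursor to the rod fate, was at 288, 344 and 715 CPM in members of transplanted and 368, 636 and 490 CPM in members of cultured libraries. Depth-matched cells had 457, 1243 and 1199 CPM in transplanted and 469, 1139 and 718 CPM in cultured libraries (-0.64 ± 0.07, adjusted p = 0.000502), lower in 6 of 6 libraries. In transplanted 2 an NRL UMI was in 18.2% of 11 members and 28.6% of other cells led by RPE, mural or Müller markers. Their median depths were 6606 and 3661.5 UMIs. After the thinning described for CRX the order was reversed, at 20% of 10 members and 14.3% of 49 such cells. With so few members these shares cannot decide whether NRL there was above background, and no expression is read from them. NR2E3 had -0.65 ± 0.11 (adjusted p = 0.00379) and ROM1 -0.52. With class matching 1 of 5 rod genes tested was lower, NRL (-0.30 ± 0.07, adjusted p = 0.0402), and the median was -0.22 against -0.60 without it. The calls of NR2E3 (-0.22, adjusted p = 0.297) and ROM1 (-0.21, adjusted p = 0.337) ended. The cone phosphodiesterase subunit gene PDE6H had -0.51 ± 0.10 (adjusted p = 0.0109), a call that ended in capped cells (-0.46, adjusted p = 0.21) and with class matching (-0.32, adjusted p = 0.0656). Summed over 7 rod genes, members had 372, 465 and 996 CPM in transplanted and 463, 829 and 725 CPM in cultured libraries 1, 2 and 3. The matched cells had 570, 1780 and 1700 CPM in transplanted and 593, 1452 and 992 CPM in cultured libraries, higher than the members in 6 of 6 libraries.

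Cells were assigned to the marker list with the most UMIs, if it had at least 2 and led alone. Rod markers led in 9.60%, 9.09% and 17.4% of transplanted and 12.2%, 18.6% and 26.5% of cultured members of libraries 1, 2 and 3. In depth-matched cells they led in 21.8%, 38.2% and 36.2% of transplanted and 17.6%, 33.6% and 27.1% of cultured cells. The means were 15.6% ± 6.64 in members and 29.1% ± 8.30 in matched cells (SD, n = 6), lower in 6 of 6 libraries (exact two-sided paired permutation p = 0.031, 0.203 adjusted over 13 classes). Cone markers led in 15.2% ± 5.09 of members and 17.0% ± 1.07 of matched cells, a difference smaller than the SD of the members. Summed over 7 cone genes, members had 477 ± 199 CPM and matched cells 696 ± 153 CPM (SD, n = 6). The cone sum was lower in members of 6 of 6 libraries (exact two-sided paired permutation p = 0.031, 0.0938 adjusted over 18 lists).

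No single retinal class accounted for the members. Müller glia markers led in 28.0% of members of transplanted 1 but in 0 to 9.09% of those of the other libraries, close to the matched cells in each. Neurogenic markers led in 10.0% ± 5.06 of members and 5.20% ± 4.29 of matched cells (SD, n = 6). They were higher in members of 4 of 6 libraries (exact two-sided paired permutation p = 0.219, 0.361 adjusted over 13 classes). The gap was largest in transplanted 2 (18.2% of 11 members against 0%) and transplanted 3 (11.6% against 1.93%). Markers of dividing cells led in 15.2% ± 7.90 of members and 7.96% ± 11.95 of matched cells, higher in 5 of 6 libraries (exact two-sided paired permutation p = 0.062). None of the 8 genes of that list was called (median 0.71), and without Set 1, where dividing cells were frequent in both sets of cultured 1, 7 of 8 were higher (median 1.29). In transplanted 3 the dense members had 67.2 CPM of TOP2A and 87.1 CPM of NUSAP1, but 3.31 CPM of MKI67 and 14.3 CPM of CENPF, so only part of that list was high in them. Depth-matched cells there had 14.98, 19.8, 10.9 and 25.4 CPM of the same genes. Members were 5.38% of all kept cells of transplanted 3. They were 35.8% of its cells led by dividing markers and 30.6% of those led by neurogenic markers. For rod and cone markers the values were 2.94% and 6.81%. In 26.0% ± 7.90 of members and 19.7% ± 7.15 of matched cells no list led. In 45.5% ± 16.4 of members and 52.0% ± 16.8 of matched cells at least 2 lists had 3 or more UMIs each, lower in members of 6 of 6 libraries (exact two-sided paired permutation p = 0.031, 0.0521 adjusted over 5 readouts), and no doublets had been removed.

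**Figure D5:**
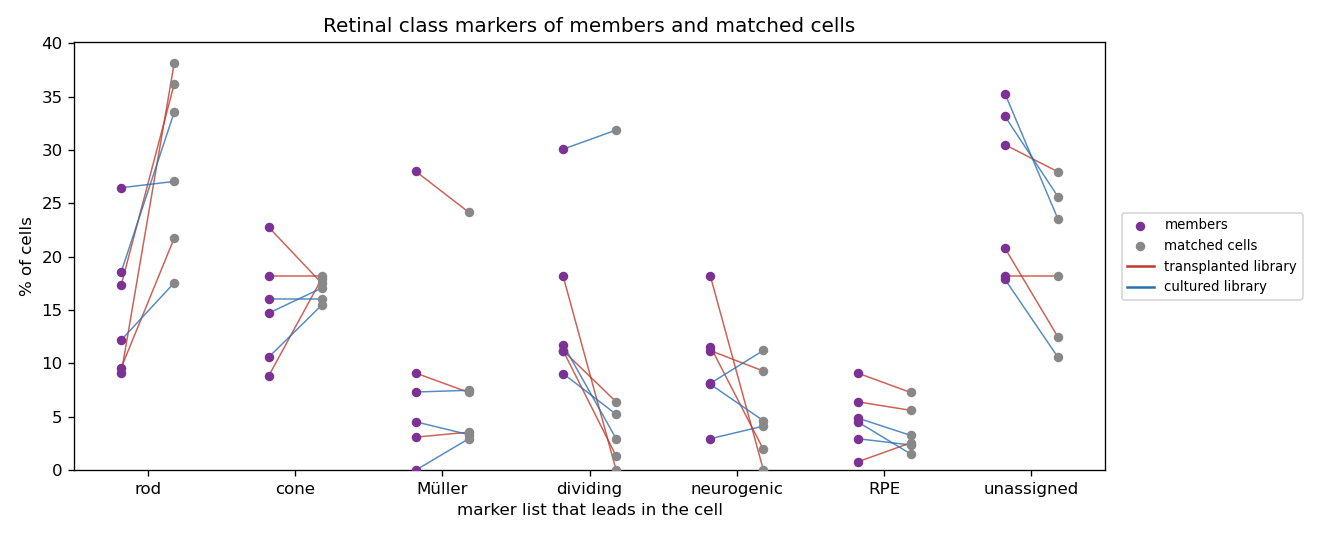
Percent of cells in which a marker list led, for members (purple) and depth-matched cells (grey) of each library, joined by a red line in transplanted and a blue line in cultured libraries. Rod markers led in fewer members than matched cells in 6 of 6 libraries, and the shares led by cone and Müller markers did not separate the sets.

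Among the less frequent classes, 3 of 5 horizontal cell genes were lower in members, ONECUT1, ONECUT2 (-1.29) and TNR (-1.55), and 1 was higher, LHX1. In capped cells 3 of 4 were lower and 1 higher. ONECUT1 was at 6.14, 0 and 9.91 CPM in members of transplanted and 1.51, 9.01 and 5.87 CPM in members of cultured libraries 1, 2 and 3, against 5.64 to 68.9 CPM in matched cells (-1.74 ± 0.34, adjusted p = 0.0191), with members lower in 5 of 6 libraries. LHX1, a homeobox factor of horizontal cells, was higher (1.65 ± 0.35, adjusted p = 0.0188). The amacrine factor TFAP2B was lower (-1.76), and RBPMS, a ganglion cell gene, was higher (1.46 ± 0.23, adjusted p = 0.00387). With class matching none of the 5 horizontal, 5 amacrine and 3 ganglion cell genes tested was called, with ONECUT1 at -1.05 (adjusted p = 0.0768), LHX1 at 1.76 (0.055), TFAP2B at -0.89 (0.271) and RBPMS at 0.92 (0.133). Summed ganglion, mural and choroid plexus markers were each higher in members of 6 of 6 libraries (exact two-sided paired permutation p = 0.031 each, 0.0938 adjusted over 18 lists). For choroid plexus markers the gap was small in transplanted 2 (6.74 against 5.54 CPM) and transplanted 3 (8.81 against 7.93 CPM). Of the 6 ganglion genes, 3, 4 and 4 were at 0 in members of transplanted 1, transplanted 2 and cultured 3.

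TTR, the thyroid hormone carrier transthyretin of choroid plexus and pigment epithelium, was the most abundant of the raised markers in Set 1. It was at 4077, 0 and 4.95 CPM in members of transplanted and 3292, 845 and 11.7 CPM in members of cultured libraries 1, 2 and 3. Depth-matched cells had 1233, 0 and 3.41 CPM in transplanted and 1059, 285 and 4.35 CPM in cultured libraries (1.55 ± 0.10, adjusted p = 1.16e-06). The gene was nearly absent from Set 3, where members were most frequent, so TTR in members was almost all in Set 1 and cultured 2. Genes of the pigment epithelium were higher in the same libraries, with PMEL, a melanosome protein, at 183, 0 and 4.95 CPM in members of transplanted and 128, 299 and 0 CPM in members of cultured libraries. Depth-matched cells had 91.4, 1.38 and 2.53 CPM of PMEL in transplanted and 52.2, 43.5 and 1.24 CPM in cultured libraries, and of the 7 genes of that list BEST1 was called (1.47). With class matching the calls of TTR (0.70 ± 0.36, adjusted p = 0.398) and BEST1 (0.69 ± 0.22, adjusted p = 0.108) ended. The summed myeloid list was at 8.70 ± 5.05 CPM in members and 4.78 ± 3.28 in matched cells (SD, n = 6), and CSF1R of that list was called (2.18), though not with class matching. Summed erythroid markers were at 1.12, 6.74 and 29.2 CPM in members of transplanted and 1.51, 3.73 and 35.2 CPM in members of cultured libraries 1, 2 and 3. Matched cells had 0.564, 0 and 171 CPM in transplanted and 0.152, 0.0621 and 0 CPM in cultured libraries, and the dense members of cultured 3 had 179 CPM. Of the erythroid genes 2 were tested, HBA1 and HBA2, near-identical copies that are uncertain, with 0 called here and both called higher with class matching (4.41 and 4.17) and against the cells high for the 4 genes described next.

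The rule set members apart from cells with a sum of at least 3 over HRK, TRIB3, BBC3 and PPP1R27, of which there were 815, 100 and 701 in transplanted and 382, 1499 and 97 in cultured libraries 1, 2 and 3. Against these cells 1048 genes were higher in members (6.58% of 15933) and 798 lower (5.01%), with a median log2 change of -0.02. Together that was 11.6% of genes, and the count of 1846 was 1186 without transplanted 1 and 831 without cultured 2. SNAI1 averaged 31.2 ± 27.6 CPM in members and 1.62 ± 1.38 in cells high for the 4 genes (SD, n = 5; 4.25 ± 0.28, adjusted p = 1.64e-07). CRISPLD2 (3.87 ± 0.30), NPAS4 (3.64 ± 0.62), EYA4 (3.59 ± 0.36), CHST8 (3.24 ± 0.32) and NEFH (3.17 ± 0.35) followed. The members' values are those of the comparison above, so the comparisons are not independent.

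Photoreceptor genes were lower in this comparison as well, with 6 of 6 genes shared by rods and cones, 4 of 5 rod genes and 3 of 6 cone genes called. STMN2, a growth cone protein and one of the 6 largest falls, was at 44.1, 13.5 and 56.7 CPM in members of transplanted and 101, 91.7 and 93.9 CPM in members of cultured libraries 1, 2 and 3. Cells high for the 4 genes had 250.4, 186 and 148 CPM in transplanted and 197, 171 and 203 CPM in cultured libraries (-1.38 ± 0.20, adjusted p = 0.00248). STMN4 (-1.57), VTN (-1.47), EYA1 (-1.36), CPLX3 (-1.29) and DUSP26 (-1.26) were lower too. Of immediate early genes 18 of 27 were higher in members and 0 lower, and of short-lived regulators 10 of 20. These cells were not matched on depth. Median depth was 9116, 6606 and 3440 UMIs in members of transplanted and 8483, 4841 and 2640 UMIs in members of cultured libraries. It was 6386, 8994 and 11986 UMIs in the transplanted and 6003, 12496 and 6235 UMIs in the cultured cells high for the 4 genes.

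Between transplanted and cultured members no gene was called without the pairing by Set. Over 2 transplanted and 3 cultured libraries edgeR called 0 of 14021 genes, of which 129 had an unadjusted p under 0.05. DESeq2 called none either. With the Set as a block, which leaves 1 residual degree of freedom, 73 genes were higher (0.467% of 15642) and 73 lower (0.467%). The values below are those of the block fit. Each named gene lost its call without the block and kept it when the 11 members of transplanted 2 were added to the block fit, so the calls depend on the pairing.

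SERPINA3, a secreted protease inhibitor of the acute phase response, was at 256, 80.8 and 165 CPM in transplanted and 31.0, 27.0 and 0 CPM in cultured members of libraries 1, 2 and 3 (3.79 ± 0.45, adjusted p = 1.01e-13). The groups did not overlap. Depth-matched cells showed the same order, with 173, 22.2 and 15.6 CPM in transplanted and 11.9, 4.66 and 1.86 CPM in cultured libraries. H19, an imprinted long noncoding RNA, was at 235, 115 and 51.2 CPM in transplanted and 34.1, 9.63 and 2.93 CPM in cultured members (3.10 ± 0.44, adjusted p = 4.77e-09). The groups did not overlap for H19 either.

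Lower in transplanted members was WLS, which carries Wnt proteins to the cell surface, at 5.58, 0 and 4.40 CPM in transplanted and 53.7, 21.1 and 135 CPM in cultured members (-3.91 ± 0.44, adjusted p = 2.48e-15). HTR2C, a serotonin receptor of choroid plexus and neurons, was at 0, 0 and 0.551 CPM in transplanted and 53.7, 11.2 and 67.5 CPM in cultured members (-7.28 ± 0.73, adjusted p = 2.39e-19), a fitted value that depends on the prior count. NPB, a neuropeptide gene that overlaps ANAPC11, was at 6.70, 6.74 and 4.40 CPM in transplanted and 50.7, 82.97 and 44.01 CPM in cultured members (-2.90 ± 0.45, adjusted p = 1.84e-07). For each of these 3 genes the groups did not overlap. MT-CYB had 2.60 ± 0.46 (adjusted p = 1.37e-05), but members of cultured 2, at 4472 CPM, were above those of transplanted 1, 2 and 3, at 4069, 4048 and 3680 CPM. Of mitochondrially encoded genes 7 of 13 were higher in transplanted members and 0 lower (median 1.58, against 0.03 over all genes), and of immediate early genes 1 of 27. Summed over the 13 mitochondrial genes, depth-matched cells were also higher in the transplanted library of each Set. They had 34959, 32073 and 29843 CPM in transplanted and 12506, 25702 and 14617 CPM in cultured libraries 1, 2 and 3, so the difference was not particular to members.

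The increase of a gene in members over matched cells was not shown to differ between transplanted and cultured libraries. The interaction test in edgeR called 0 of 16047 genes, of which 510 had an unadjusted p under 0.05. It called 307 genes without transplanted 1, which leaves 1 transplanted library, and 50 without cultured 3. The smallest p of all was that of HBA1, whose increase was greater in cultured libraries (-6.08 ± 0.99, adjusted p = 0.312), followed in that direction by CXCL14, a chemokine (-1.48 ± 0.28), and HTR2C (-5.20 ± 0.99, both adjusted p = 0.388). The smallest p among increases that were greater in transplanted libraries were those of LINC01619 (1.43 ± 0.27, adjusted p = 0.388), HIST2H2BE (1.91 ± 0.40) and DLL1 (1.56 ± 0.33, both adjusted p = 0.788). LINC01619 overlaps BTG1 and its difference turned to -0.25 without transplanted 3. DLL1 was at 30.7, 148 and 237 CPM in members of transplanted and 16.7, 28.3 and 79.2 CPM in members of cultured libraries 1, 2 and 3. Its depth-matched cells had 5.19, 15.2 and 27.6 CPM in transplanted and 5.93, 14.4 and 18.6 CPM in cultured libraries.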

How the data were processed

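Single-cell RNA was measured with 10x Genomics 3′ chemistry version 3.1 in 6 libraries. The deposited matrices hold raw UMI counts of 36601 genes with no normalization. Per the file headers, the authors used Cell Ranger 6.0.2 for Set 1 and 7.1.0 for Sets 2 and 3 on GRCh38. The setting for intronic reads is not given in the sources used here. Doublets were not removed.

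The members, gene lists and markers were chosen with earlier results of these data known. Counts were summed per library over members and over 5 depth-matched cells per member, and tested with edgeR 4.0.16 in R 4.3.3 (quasi-likelihood, filterByExpr, TMM, library as block, Benjamini-Hochberg at 0.05) in libraries with at least 20 members. DESeq2 1.42.0 was an alternative. Per-library shares were compared with exact permutation tests. The labels say that both samples of a Set came from the same organoid batch, and deviations of same-Set members correlated at 0.864, 0.223 and 0.743. Between different Sets the correlations ran from -0.815 to 0.401, and transplanted 2 correlated more with cultured 3 (0.370) than with cultured 2. P-values of the gene fits against other cells measure the spread of the within-library difference over 5 libraries. Those of the group fits rest on 2 transplanted and 3 cultured libraries, and those of the group shares on 3 per group. The main block fit compares the pairs of Sets 1 and 3 and leaves 1 residual degree of freedom. Its p-values therefore hardly measure a spread between libraries.

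Named genes were the 15 largest called rises and 10 largest falls against matched cells, 6 and 6 against cells high for the 4 genes and 8 and 8 between groups, with at least 30 CPM in the higher set and 1 sign throughout, plus up to 4 genes of smallest p per list. ARC, KLF4, FOS, EGR1, HEXIM2, OTX2, TULP1, SUPT5H, the genes named as called in capped cells alone, VEGFA, TOP2A and MKI67 were named after their values were seen. Results of some genes are not reported here. The fits were tested on simulated data.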

Additional observations from a re-analysis of the deposited data

Results flagged for a closer look

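The 11 members of transplanted 2 entered none of the main fits, so their values are a look at data that the main tests did not use. Only the alternative fits said to include transplanted 2 used them. Summed over the 15 genes with the largest called rises, these members had 1273 CPM and the depth-matched cells of that library 208 CPM. Of the 15 genes, 14 were higher in the members and 0 were at 0 in them. Of the 10 genes with the largest called falls, 9 were lower in the members. The 15 and 10 genes had been chosen from the other 5 libraries. The shares of all genes that were higher or lower in these 11 members were not computed. The counts therefore have no background to be set against, and no conclusion is drawn from them.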

How the results depend on the processing

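The count of genes called against depth-matched cells (954) was 618 with a stricter cell filter, 2305 with no filter on low counts, 1482 against all other cells, 467 with class matching, 1450 without the 5% deepest cells, 1601 with capped cells, 1536 with transplanted 2 and 2348 in dense members. The last 3 alternatives, and leaving out Set 1 (1193), were chosen after seeing the data. Without 1 library it lay between 235 (without cultured 2) and 1399 (without cultured 3). Called genes were higher in members in 47.0% of cases, and in 63.2% with DESeq2. All 25 named genes kept their direction, and calls ended for DLL1, ZNF503, IER3 and SGK1 with the stricter cell filter, for ZNF503, RBFOX1 and AF279873.4 with class matching, for RPS6KL1 and AF279873.4 in dense members, for DLL1 and AF279873.4 without Set 1, and for up to 6 genes without 1 library. Against cells high for the 4 genes the count (1846) ran from 831 without cultured 2 to 1549 without transplanted 3, and 992 without Set 1. Between transplanted and cultured members it was 0, or 11 with no filter on low counts, 146 with the replicate block and 279 with the block and transplanted 2. The difference of responses had 0 calls, 1 with RLE size factors, 3 in dense members and 0 to 307 without 1 library (307 without transplanted 1, 50 without cultured 3). LINC01619 (1.43) ran from -0.25 without transplanted 3 to 1.48 without transplanted 1. The block changed no call on the share (difference 1.40, exact paired p = 0.50), which ran from 0.140 to 2.04 without 1 library. The small number of members in transplanted 2 and cultured 3 (11 and 34), and the low depth of cultured 3 (median 2140 UMIs per kept cell), limit what these libraries can show.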

Other observations

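TMPRSS9 is the gene upstream of GADD45B on the same strand of chromosome 19 (2360238 to 2426239, and GADD45B 2476122 to 2478259, GRCh38 in GENCODE v29). It was higher in members by 1.95 ± 0.32 (adjusted p = 0.00669) with edgeR's quasi-likelihood test. The other genes tested within 100 kb were TIMM13, which overlaps TMPRSS9 on the other strand (0.00 ± 0.09, adjusted p = 0.994), LMNB2 (0.24 ± 0.20, adjusted p = 0.523) and GNG7 (0.25 ± 0.19, adjusted p = 0.478). TMPRSS9 was at 0.558, 6.74 and 116 CPM in members of transplanted and 0.757, 13.4 and 58.7 CPM in members of cultured libraries 1, 2 and 3. Depth-matched cells had 0.113, 6.92 and 15.9 CPM in transplanted and 0.152, 5.22 and 29.2 CPM in cultured libraries, so members were not higher in transplanted 2.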
